A study of Homo sapiens with 6 samples.

Results

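The 10 genes described here encode tropomyosins (TPM1, TPM2, TPM3 and TPM4), caldesmon (CALD1), calponins (CNN2 and CNN3), the calponin relative transgelin 2 (TAGLN2) and the non-muscle alpha-actinins (ACTN1 and ACTN4). They were taken by gene symbol from the 61204 rows of each expression file, and each of the 10 symbols matched 1 row. RNA was sequenced from RKO cells, a human colorectal cancer cell line, after transfection with siANP32B (3 samples, labelled ANP32B knockdown) or with the negative control siCtrl (3 samples, labelled ANP32B wild type). The methods give 100 pmol of siRNA for either group and collection about 48 to 72 h after transfection, and they do not say which siANP32B sequence was sequenced or whether the samples of a group were separate cultures. P-values therefore reflect the spread among these 6 samples alone, and that spread may be technical. Expression is in FPKM, the fragments of a gene divided by its length and by the library total. Levels of genes can thus be set side by side, as far as the lengths used are right. The 10 genes were chosen by family, with their FPKM difference between siANP32B and siCtrl already known, and that difference is given below as a description, with no test of it.

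Actin filaments in cells carry side-binding proteins that set how stiff, long-lived and contractile they are. Tropomyosins are coiled-coil dimers that lie end to end along the filament and decide which myosins and severing proteins can reach it, and each tropomyosin gene yields several isoforms through alternative promoters and splicing. Caldesmon and calponins bind actin and hold back the myosin motor, while alpha-actinins are dimers that tie filaments into bundles and link them to adhesions. Many of these genes are known targets of serum response factor (SRF), which binds the CArG box and works with the actin-sensing coactivators of the MRTF family.

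The total behind the FPKM, read from their steps, was 14577044 to 16393123 fragments per siANP32B sample and 14304093 to 18987041 per siCtrl sample. ANP32B was at 72.5, 53.9 and 75.3 FPKM in siANP32B replicates 1, 2 and 3, against 429, 466 and 452 FPKM in siCtrl replicates 1, 2 and 3, so every siANP32B library held far less of the targeted mRNA. Of 5 epithelial markers, 3 averaged at least 1 FPKM, while KRT19 was listed at 0 in the 6 samples and CDH1 was at most 0.0275 FPKM. Of 5 intestinal markers only CDX2 passed 1 FPKM. Smooth muscle markers summed to 185 to 191 FPKM in siANP32B and 164 to 183 FPKM in siCtrl, nearly all of it from SMTN, and the defining markers MYH11 and DES were listed at 0. The leukocyte list summed to 0 FPKM in siANP32B and at most 0.0346 FPKM in siCtrl. Fibroblast markers summed to 1.28 to 2.3 FPKM in siANP32B and 3.08 to 4.31 FPKM in siCtrl, mostly from COL1A1. Striated muscle markers summed to 2.29 to 2.46 FPKM in siANP32B and 3.4 to 3.92 FPKM in siCtrl, all of it from TTN. For endothelial markers the sums were 0.284 to 0.47 FPKM in siANP32B and 0.672 to 1.02 FPKM in siCtrl.

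Among 24 RefSeq promoter windows of the 10 genes (GRCh38.p14, 250 bases before to 50 after each start), 3 held a CArG box, 1 each in TPM4, CNN2 and ACTN1. That is 12.5% of the windows of these genes, while 1.29% of all 35116 windows held the motif. The TEAD motif GGAATG, on either strand, was in 4 of the 24 windows (14.0% of all windows), and the AP-1 motif TGACTCA, on either strand, was in 2, both of TAGLN2 (4.95% of all windows). The stretches around the CArG boxes are shown because TPM4, the gene with the largest difference between the groups, holds this motif together with CNN2 and ACTN1, whose differences were small. The CArG box is in capitals, none of the 3 overlaps a TEAD or AP-1 match, and each sequence is read on the strand of its gene. The ACTN1 stretch also holds an unmarked TEAD match, on the other strand, after its CArG box. A match describes letters and is not a measured binding site.
TPM4, chr19:16067305-16067434, forward strand: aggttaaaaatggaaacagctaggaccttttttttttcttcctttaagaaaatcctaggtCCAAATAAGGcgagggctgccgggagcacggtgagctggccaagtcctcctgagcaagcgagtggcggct
CNN2, chr19:1026459-1026588, forward strand: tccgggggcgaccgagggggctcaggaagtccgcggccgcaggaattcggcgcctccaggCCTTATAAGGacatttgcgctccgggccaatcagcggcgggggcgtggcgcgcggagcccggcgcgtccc
ACTN1, chr14:68977668-68977797, reverse strand: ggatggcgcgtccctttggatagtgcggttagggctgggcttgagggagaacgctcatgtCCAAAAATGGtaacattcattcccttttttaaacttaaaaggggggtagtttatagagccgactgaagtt
The box starts 173 bases before the annotated start in TPM4, 89 bases before it in CNN2 and 171 bases before it in ACTN1. TPM4 and ACTN1 have other annotated starts (3 and 4 windows in all), and values per gene do not say which start was used.

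TPM4 was far higher in siANP32B, while the other tropomyosin genes differed little or were lower. TPM4 (ENSG00000167460, chromosome 19 from 16067021 to 16103005, forward strand, coordinates of GENCODE 29 on GRCh38) encodes a tropomyosin of non-muscle cells. It was at 271, 275 and 276 FPKM in siANP32B replicates 1, 2 and 3, against 143, 137 and 141 FPKM in siCtrl replicates 1, 2 and 3. The groups lay far apart and the samples within each were close together. The mean was 274 ± 2.36 FPKM in siANP32B and 140 ± 3.43 FPKM in siCtrl (mean ± S.D., n = 3 each), 1.952 times the control level, with a log2 fold change of 0.96 (standard error 0.04). Of the 13945 genes tested, 0.617% had a larger log2 fold change of FPKM + 1, a scale that understates the differences of low genes. These values rest on 4573 to 10399 fragments per sample, the smallest whole numbers that the FPKM allow, so counting error was at most 1.48% of a value.

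TPM3 (ENSG00000143549, chromosome 1 from 154155304 to 154194648, reverse strand) encodes another tropomyosin found in most cell types. It was at 173, 175 and 174 FPKM in siANP32B, against 154, 162 and 155 FPKM in siCtrl, so every siANP32B sample was above every siCtrl sample by a small margin. Its log2 fold change was 0.15 (standard error 0.04). TPM3 has processed pseudogenes, and of the 26 rows annotated as pseudogenes or antisense genes of the 10 genes, only TPM3P9 averaged at least 1 FPKM. TPM3P9 averaged 4.13 FPKM in siANP32B and 5.30 FPKM in siCtrl, 2.85% of the level of TPM3.

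TPM2 (ENSG00000198467, chromosome 9 from 35681992 to 35690121, reverse strand), which encodes beta-tropomyosin, had the most negative log2 fold change of the 10 genes. It was at 25.5, 23.0 and 27.3 FPKM in siANP32B, against 33.6, 30.6 and 33.3 FPKM in siCtrl. The groups did not overlap, and the siANP32B mean was 77.8% of the siCtrl mean (log2 fold change -0.35, standard error 0.07). By the smallest whole fragment numbers that the FPKM allow, TPM2 was also the least covered of the 10, with 382 to 666 per sample. Its counting error was then at most 5.12% of a value. TPM1 (ENSG00000140416, chromosome 15 from 63042632 to 63071915, forward strand), which encodes alpha-tropomyosin, was at 36.4, 35.6 and 34.9 FPKM in siANP32B, against 38.2, 34.5 and 38.5 FPKM in siCtrl. These ranges overlapped, and its log2 fold change of -0.05 (standard error 0.06) turned to 0.01 with median-of-ratios scaling of the FPKM values and to 0.02 with upper-quartile scaling.

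**Figure D1:**
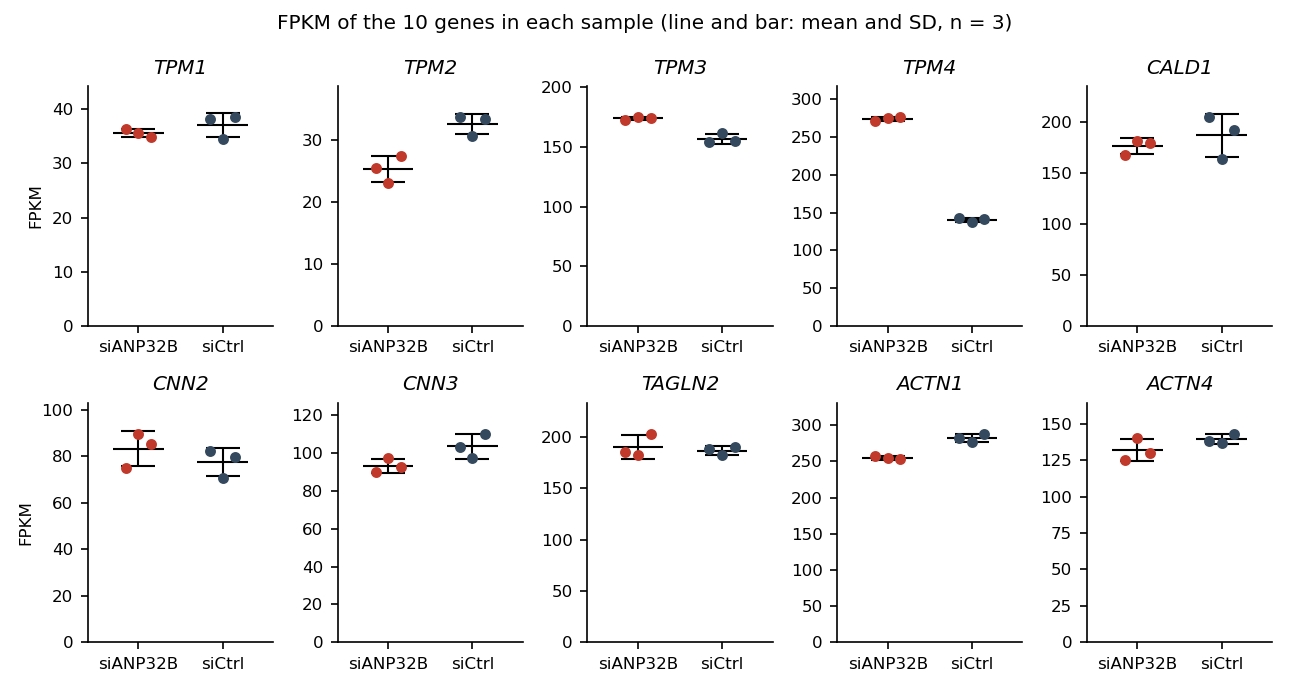
FPKM (y axis, from 0, a separate scale for each gene) of the 10 genes in siANP32B samples (left, red) and siCtrl samples (right, dark blue). Points are samples in replicate order, lines and bars are mean and S.D. (n = 3). TPM4 stands at 271 to 276 FPKM in siANP32B and 137 to 143 FPKM in siCtrl, while the other genes differ by much less.

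Because FPKM are per length of gene, the 4 tropomyosin genes can be added. Their sum was 505, 508 and 512 FPKM in siANP32B replicates 1, 2 and 3, against 369, 364 and 367 FPKM in siCtrl replicates 1, 2 and 3. Without TPM4 the sum was 235 ± 1.30 FPKM in siANP32B and 227 ± 0.822 FPKM in siCtrl, so nearly all of the difference in the sum was that of TPM4. TPM4 made up 53.8 ± 0.206% of the sum in siANP32B and 38.2 ± 0.664% in siCtrl, and TPM3 made up 34.2 ± 0.213% in siANP32B and 42.8 ± 1.55% in siCtrl. TPM1 held 7.01 ± 0.192% in siANP32B and 10.1 ± 0.538% in siCtrl, and TPM2 held 4.97 ± 0.406% in siANP32B and 8.85 ± 0.397% in siCtrl (mean ± S.D., n = 3 each). As shares of 1 sum, these are lower wherever TPM4 is higher. By mean FPKM, TPM3 itself was higher in siANP32B (174 FPKM, against 157 FPKM in siCtrl), while TPM1 and TPM2 were lower. The TPM4 to TPM3 ratio was 1.57, 1.57 and 1.58 in the siANP32B samples, against 0.931, 0.842 and 0.910 in the siCtrl samples. By FPKM, TPM3 was thus the leading tropomyosin gene in each siCtrl sample, and TPM4 in each siANP32B sample. The definition of the gene length behind the FPKM is not known. The siCtrl ratios are close enough to 1 that their order could depend on it, and so could the sums and shares. A ratio within a sample does not depend on library scaling. Each tropomyosin gene has 1 value per sample, so a shift between its own isoforms would show only as far as it changed the gene's fragments or its length.

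**Figure D2:**
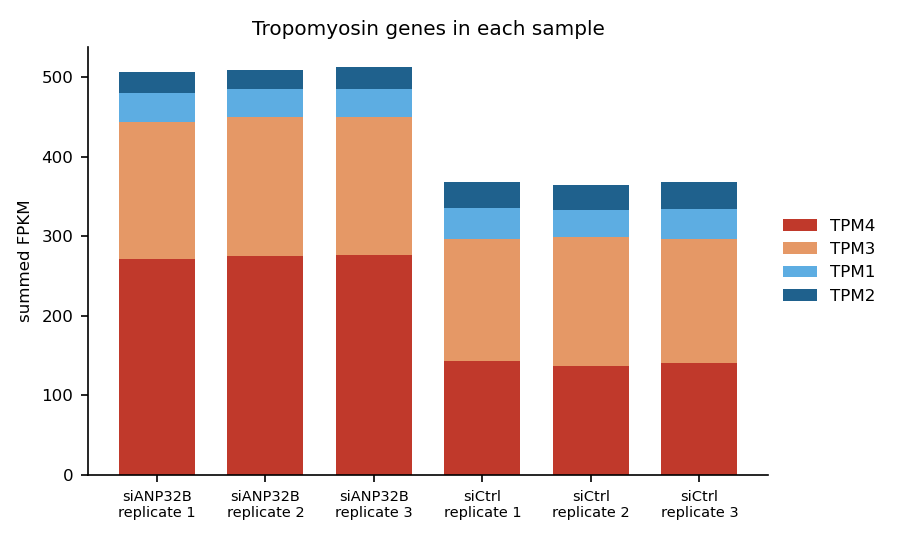
Stacked FPKM (y axis) of TPM4, TPM3, TPM1 and TPM2 in each sample (x axis, siANP32B replicates left, siCtrl replicates right). The bars reach 505 to 512 FPKM in siANP32B and 364 to 369 FPKM in siCtrl, and the TPM4 segment accounts for most of the gap.

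CALD1 (ENSG00000122786, chromosome 7 from 134744252 to 134970728, forward strand), which encodes caldesmon, was at 168, 182 and 180 FPKM in siANP32B replicates 1, 2 and 3, against 205, 164 and 193 FPKM in siCtrl replicates 1, 2 and 3. The groups overlapped, since siCtrl replicate 2 was the lowest of the 6 samples. The log2 fold change was -0.08 (standard error 0.08). With siCtrl replicate 1 as sole control it was -0.21, and it was -0.01 without that library, so for CALD1 the choice of control sample set the value.

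CNN2 (ENSG00000064666, chromosome 19 from 1026581 to 1039068, forward strand), which encodes calponin 2, was at 75.0, 89.7 and 85.1 FPKM in siANP32B, against 82.1, 70.6 and 79.9 FPKM in siCtrl. The ranges overlapped, with a log2 fold change of 0.10 (standard error 0.08). CNN3 (ENSG00000117519, chromosome 1 from 94896949 to 94927278, reverse strand), which encodes the acidic calponin 3, was at 89.7, 97.0 and 92.5 FPKM in siANP32B, against 103, 97.1 and 110 FPKM in siCtrl. The highest siANP32B sample lay just under the lowest siCtrl sample. The log2 fold change of CNN3 was -0.15 (standard error 0.05), which shrank to -0.08 with median-of-ratios scaling. The ratio of CNN2 to CNN3 was 0.836, 0.925 and 0.920 in siANP32B, against 0.796, 0.727 and 0.727 in siCtrl. Every siANP32B ratio was above every siCtrl ratio. How often the ratios of other gene pairs separate in this way was not counted, so nothing is read from it. TAGLN2 (ENSG00000158710, chromosome 1 from 159918107 to 159925732, reverse strand), an actin-binding protein of non-muscle cells, was at 185, 182 and 203 FPKM in siANP32B, against 188, 182 and 190 FPKM in siCtrl. Its log2 fold change was 0.03 (standard error 0.05), and the groups overlapped.

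The alpha-actinin genes were both slightly lower in mean level in siANP32B. ACTN1 (ENSG00000072110, chromosome 14 from 68874143 to 68979440, reverse strand), which encodes alpha-actinin 1 of stress fibres and adhesions, was at 258, 254 and 253 FPKM in siANP32B, against 282, 276 and 288 FPKM in siCtrl. Its groups did not overlap, with a log2 fold change of -0.14 (standard error 0.03), which shrank to -0.07 with median-of-ratios scaling. ACTN4 (ENSG00000130402, chromosome 19 from 38647649 to 38731583, forward strand), which encodes alpha-actinin 4, was at 125, 140 and 130 FPKM in siANP32B, against 138, 137 and 143 FPKM in siCtrl. The ranges overlapped, and the log2 fold change was -0.08 (standard error 0.05). The share of ACTN1 in the sum of ACTN1 and ACTN4 was 66.0 ± 1.39% in siANP32B and 66.9 ± 0.222% in siCtrl, a difference within the spread between replicates.

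The 10 genes did not differ in one direction. Their median log2 fold change was -0.07, beside -0.06 over all tested genes, with 4 values above 0 and 6 below. After median-of-ratios scaling, 5 were above 0 and 5 below. Groups did not overlap in 2 genes that were higher and in 3 that were lower, beside 19.3% and 31.8% of all tested genes. As the list was made on this contrast, nothing is read from the counts.

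**Figure D3:**
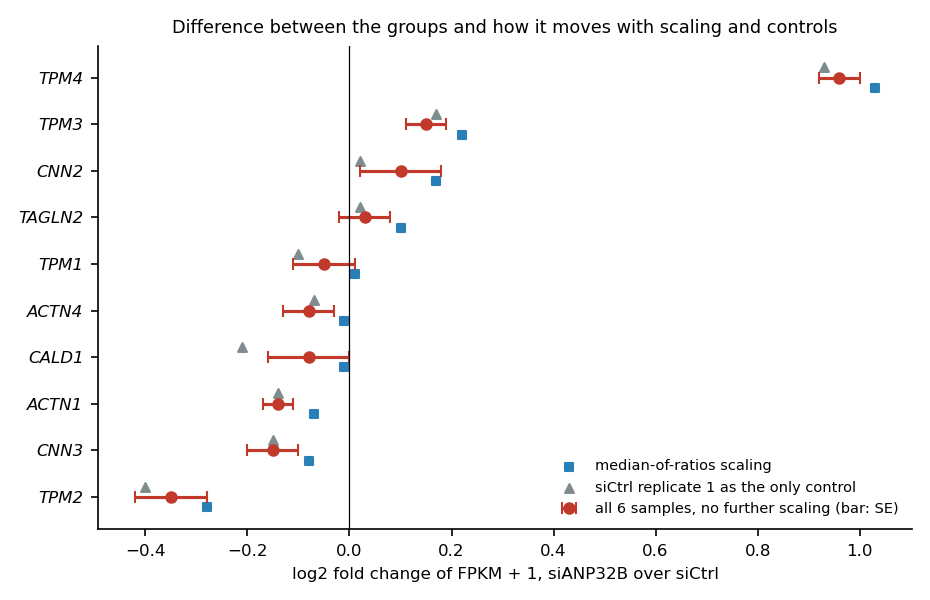
Log2 fold change of FPKM + 1, siANP32B over siCtrl (x axis), for the 10 genes (y axis, in order of the value). Circles with bars are the estimate and its standard error from the 6 samples, squares the estimate after median-of-ratios scaling and triangles that with siCtrl replicate 1 as the only control. TPM4 lies at 0.93 to 1.03 under these settings, and the other 9 genes lie between -0.40 and 0.22.

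The order of the 10 genes by FPKM depends on the gene lengths used, whose definition is not known. In siANP32B it ran from TPM4 (274 FPKM) and ACTN1 (255 FPKM) through TAGLN2, CALD1, TPM3, ACTN4, CNN3 and CNN2 to TPM1 and TPM2 (25.3 FPKM). In siCtrl the order was ACTN1 (282 FPKM), CALD1, TAGLN2, TPM3, TPM4, ACTN4, CNN3, CNN2, TPM1 and TPM2 (32.5 FPKM). In siANP32B the neighbours CALD1 and TPM3, and CNN3 and CNN2, could not be ranked, since their samples overlapped. In siCtrl the same held for CALD1 and TAGLN2 and for TPM4 and ACTN4. TPM4 held rank 1 in siANP32B, against rank 5 in siCtrl, while no other gene changed place by more than 2 ranks. The siCtrl samples were not alike for these genes: siCtrl replicate 2 held the lowest control value in 9 of the 10, TPM3 being the exception, and in 40.5% of all tested genes. Without siCtrl replicate 2 the log2 fold change was 0.94 for TPM4 and -0.39 for TPM2, close to the values from the 6 samples.

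Of 5 paralogs of the 10 genes that are known mainly from muscle or neurons, only TAGLN averaged at least 1 FPKM. ACTN2, the alpha-actinin of striated muscle Z-discs, was listed at 0 in the 6 samples, and ACTN3 was at most 0.123 FPKM. TAGLN3, a transgelin of neurons, was at 0.330 to 0.727 FPKM in siANP32B and 0.101 to 0.571 FPKM in siCtrl. CNN1, the calponin of smooth muscle, was at 0.475, 0.490 and 0.610 FPKM in siANP32B, against 0.996, 1.24 and 1.39 FPKM in siCtrl, from 7 to 8 and 16 to 19 fragments, and fell under the filter of a mean of 1 FPKM. TAGLN, which encodes transgelin (SM22), was at 29.8, 32.9 and 35.7 FPKM in siANP32B, against 36.0, 39.0 and 39.6 FPKM in siCtrl. It was called lower (log2 fold change -0.22, standard error 0.07, adjusted p = 0.0412 from limma), and the call was lost in 9 of 14 alternatives, among them either scaling.

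Other genes that build or bind actin filaments, which are not among the 10, changed in either direction. Of 79 such genes in 8 lists, 67 passed the filter, and limma called 13 higher and 22 lower in siANP32B (adjusted p under 0.05), beside 14.6% of all tested genes called higher and 24.6% called lower. The split became 18 higher and 14 lower after median-of-ratios scaling. Together 52.2% were called, beside the 39.2% of all tested genes, and their median log2 fold change was -0.02. These shares are not matched for level, since most of the related genes averaged more than 5 FPKM. With a mean of at least 5 FPKM as the filter, 5256 genes were called, with 13 related genes higher and 23 lower. The 10029 genes known to average that much leave out TPM4 and genes without a symbol, so no exact share follows. The 52.2% belongs to the filter of 1 FPKM and is not comparable with these numbers. Whether the related genes were called more often than genes of like level was not tested.

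The cytoplasmic actin genes ACTB and ACTG1, named after their values were seen, were at 1358, 1432 and 1437 FPKM and at 1326, 1350 and 1361 FPKM in siANP32B. They were at 1358, 1457 and 1427 FPKM and at 1311, 1293 and 1350 FPKM in siCtrl, and neither was called. Of the 3 tested actin genes only ACTA2, the smooth muscle form, was called, at 4.09, 3.09 and 2.22 FPKM in siANP32B, against 1.35, 1.02 and 0.956 FPKM in siCtrl (log2 fold change 0.95, standard error 0.20, adjusted p = 0.00524 from limma). ACTA2 was low in each group, its call was lost against siCtrl replicate 1 alone (log2 fold change 0.79), and the smooth muscle markers MYH11 and DES were at 0.

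Of 9 tested tropomodulin and capping genes, whose proteins close the ends of filaments, 2 were higher and 2 lower. With median-of-ratios scaling 3 were higher and 2 lower. TMOD3, which caps the pointed end of tropomyosin-coated filaments, fell to 37.7 ± 0.989 FPKM in siANP32B, against 47.3 ± 2.53 FPKM in siCtrl (adjusted p = 0.00178 from limma). CAPZA1, an alpha subunit of the barbed-end capping protein, fell to 301 ± 8.91 FPKM in siANP32B, against 381 ± 23.6 FPKM in siCtrl, and CAPZB, its beta subunit, rose to 55.6 ± 4.76 FPKM in siANP32B, against 47.6 ± 1.13 FPKM in siCtrl (adjusted p = 6.71e-04 and 0.0271 from limma). The call of CAPZB was lost in 7 of 14 alternatives, although its direction held in them.

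Of 11 tested genes of non-muscle myosin II and its regulators, 4 were higher and 4 lower, and 4 higher and 1 lower with median-of-ratios scaling. MYH9, the heavy chain of non-muscle myosin IIA, rose to 747, 784 and 766 FPKM in siANP32B, against 639, 619 and 648 FPKM in siCtrl (log2 fold change 0.27, standard error 0.04, adjusted p = 4.01e-04 from limma). MYH14, the heavy chain of myosin IIC, rose to 10.5 ± 0.448 FPKM in siANP32B, against 6.89 ± 0.429 FPKM in siCtrl. PPP1R12A, the targeting subunit of myosin phosphatase, fell to 39.3 ± 2.87 FPKM in siANP32B, against 53.5 ± 1.27 FPKM in siCtrl (adjusted p = 5.01e-04 from limma).

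Of 11 other crosslinker genes tested, 5 were lower and 0 higher by limma, with 1 higher at an unadjusted p under 0.05, while median-of-ratios scaling gave 2 higher and 4 lower. The plastin gene PLS3, whose protein bundles parallel filaments, fell to 29.9, 29.1 and 30.2 FPKM in siANP32B, against 45.4, 39.5 and 39.4 FPKM in siCtrl (log2 fold change -0.46, standard error 0.07, adjusted p = 5.81e-04 from limma). Its relative PLS1 had a log2 fold change of -0.57 (standard error 0.09, adjusted p = 9.58e-04 from limma). Of 10 tested partners of actinin at adhesions, 2 were higher and 2 lower, and 2 were higher and 0 lower with median-of-ratios scaling. The LIM-domain genes LPP and TRIP6 rose, with log2 fold changes of 0.55 and 0.23, and ZYX, which encodes the actinin-binding protein zyxin, was at 201 ± 10.1 FPKM in siANP32B, against 230 ± 7.15 FPKM in siCtrl (adjusted p = 0.00989 from limma, and 0.0813 with median-of-ratios scaling).

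Of 18 genes of filament turnover and nucleation, 4 were higher and 8 lower, and 5 were higher and 7 lower with median-of-ratios scaling. TMSB10, a thymosin that holds monomeric actin, rose to 899 ± 43.7 FPKM in siANP32B, against 629 ± 20.5 FPKM in siCtrl (log2 fold change 0.52, standard error 0.04, adjusted p = 3.75e-05 from limma). CTTN, which encodes the branch-point stabiliser cortactin, had a log2 fold change of 0.47, and ACTR3 of the Arp2/3 complex had one of -0.37. Of SRF, the coactivator genes MRTFA and MRTFB and the LIM-only gene FHL2, which formed the last list, 0 were called by limma, and 0 had an unadjusted p under 0.05. With median-of-ratios scaling FHL2 was called higher, and SRF, MRTFA and MRTFB were not called. SRF itself was at 26.3, 26.4 and 25.4 FPKM in siANP32B, against 26.8, 23.7 and 27.9 FPKM in siCtrl. These 4 genes were named after their values were seen, and the samples of SRF overlapped between the groups.

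**Figure D4:**
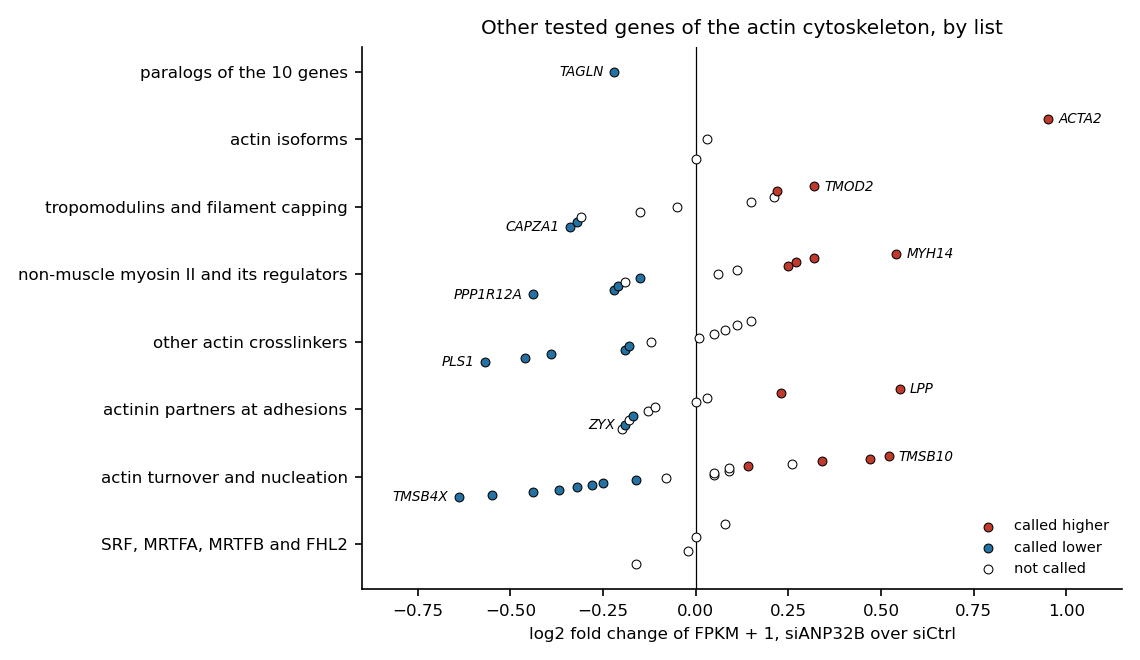
Log2 fold change of FPKM + 1, siANP32B over siCtrl (x axis), of the 67 tested genes outside the 10, in 8 lists (y axis). Each point is a gene, red where called higher, blue where called lower and white where not called, and the outermost called genes of a list are labelled. Called genes lie on either side of 0 in 4 of the lists, with 13 higher and 22 lower in all.

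The genes most like TPM4 over the 6 samples, by Pearson's r of log2(FPKM + 1) among the 10029 genes averaging 5 FPKM or more, were NCBP2 (r = 0.9995), PLD3 (0.9993) and NOLC1 (0.9993). The same measure put SDC1 (0.9959), SLC10A7 (0.9933) and DDIAS (0.9923) beside TPM2. With 6 samples in 2 groups, r follows the group difference: 7.69% of the genes had an r above 0.95 with TPM4 and 3.75% with TPM2. The r compares the shape of the pattern only, and the log2 fold changes of NCBP2, PLD3 and NOLC1 were 0.21, 0.51 and 1.24.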

How the data were processed

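RNA was extracted by the authors, sequenced as paired ends and processed with tools that the submitters' processing notes name as Bowtie2, RSEM and DESeq2 on GRCh38. The sources used here do not give versions, annotation, the definition of gene length or the use of strand. The library kit in the labels is from MGI, whereas the methods name an Illumina sequencer. The deposited files hold FPKM values, 1 file per sample, and do not name the unit. It was read from the values: at single-exon genes of GENCODE 29, FPKM times length came out as whole fragments within 0.002 for 95.0% to 95.4% of those above 0, which also gave the totals. Fragments of a gene are the smallest whole numbers that its 6 values allow, so the true number may be a whole multiple of them.

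The 13945 genes averaging 1 FPKM or more were fitted as log2(FPKM + 1) with limma 3.58.1 in R 4.3.3 with the variance trend and no block. The Benjamini-Hochberg method adjusted p-values over all of them, with 0.05 as threshold, and fold changes on this scale understate those of low genes. The fit was tested on simulated data. Python 3.11.15 was used for tables and plots.

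The 10 genes and the lists were chosen with earlier results of these data known. Besides the 10, 5 paralogs of them and up to 3 called genes with the smallest p of each list were named. Of these, 1 gene is not reported here. Alternatives were a pseudocount of 0.1, no filter, a mean of at least 5 FPKM, median-of-ratios and upper-quartile scaling, the fit without the trend, a replicate block, each sample left out in turn and siCtrl replicate 1 as the only control. Median-of-ratios scaling shifted the median log2 difference of all tested genes by 0.063.

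Exons of the 10 genes overlap few expressed genes in GENCODE 29. ACTN4 shares 868 bases with CAPN12 on the opposite strand (mean 1.07 FPKM) and TPM4 shares 829 bases with AC008894.3 on the opposite strand (0.523 FPKM), and without strand their reads cannot be told apart.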

Additional observations from a re-analysis of the deposited data

How the results depend on the processing

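The log2 fold changes of TPM4, TPM3, TPM2, CNN2, CNN3, CALD1, ACTN1 and ACTN4 kept their sign in 14 of 14 alternatives. That of TAGLN2 did so in 13 and that of TPM1 in 12. Either change of filter, the fit without the trend and the replicate block could not move these values, so only the other alternatives bear on the sign. A kept sign can also be close to no difference: CALD1 was at -0.0 with upper-quartile scaling and ACTN4 at -0.01 with either scaling. The median of the 10 was 0.00 with median-of-ratios scaling, 0.01 with upper-quartile scaling and -0.10 to -0.02 with each sample left out in turn. Of the related actin genes, 20 were higher with upper-quartile scaling, and 14 were lower with either scaling and with siCtrl replicate 1 as sole control. With each sample left out, 10 to 12 were higher and 18 to 20 lower. Over all genes, 5468 were called, and 3200 when siCtrl replicate 1 was the sole control, where that library is assumed to vary like the siANP32B samples, and 4475 to 4809 with each sample left out. With the replicate number as a block, 5316 genes were called, with 13 related genes higher and 22 lower. The median of the 10 genes was -0.07 there too, a value that this block, being balanced over the groups, cannot change. Deviations of same-numbered samples had correlations of 0.021, -0.006 and -0.003, and 2 of 6 samples correlated best with their own number, so the numbers were not taken as pairs. Among the named related genes 21 of 237 values lost their call and 0 turned sign. With 3 samples a group, the standard errors of the 10 genes (0.03 to 0.08 on the log2 scale) limit what can be said of the small differences.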

Other observations

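Some partner genes of the actin cytoskeleton, chosen here after their values were seen, moved in opposite directions. TMSB4X, the other main thymosin gene, fell to 38.8 ± 2.79 FPKM in siANP32B, against 60.9 ± 5.49 FPKM in siCtrl (log2 fold change -0.64, standard error 0.08, adjusted p = 2.38e-04 from limma), while TMSB10 rose. TMOD2 rose to 16.6 ± 1.57 FPKM in siANP32B, against 13.1 ± 1.84 FPKM in siCtrl (adjusted p = 0.0446 from limma), while TMOD3 fell, and the call of TMOD2 held in 5 of 13 alternatives (the higher filter on low values not counted). Of the Arp2/3 complex, ARPC1A rose to 18.8 ± 1.02 FPKM in siANP32B, against 14.6 ± 0.880 FPKM in siCtrl, whereas ARPC5 fell to 53.2 ± 0.920 FPKM in siANP32B, against 72.7 ± 3.39 FPKM in siCtrl (adjusted p = 0.00657 and 1.45e-04 from limma). DIAPH3, a formin that elongates filaments, fell to 16.7 ± 0.313 FPKM in siANP32B, against 24.8 ± 1.05 FPKM in siCtrl. With median-of-ratios scaling the log2 fold changes of TMSB4X, TMOD2, ARPC1A, ARPC5 and DIAPH3 kept their sign, at -0.57, 0.39, 0.40, -0.37 and -0.48.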
